A study of Homo sapiens with 2 samples.

Results

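The genes described here were 8 transcription factors of the epithelial-mesenchymal transition (EMT), SNAI1, SNAI2, TWIST1, TWIST2, ZEB1, ZEB2, PRRX1 and OVOL2, with the cadherin gene CDH2 and the intermediate filament gene VIM. They were taken by name as a list of 10 genes from a table of 57736 genes, and each matched 1 Ensembl identifier. RNA-seq was carried out on the A1847 line of human ovarian cancer, with 1 library from parental control cells, wild type for CARM1, and 1 library from CARM1 KO cells. The KO cells were made by CRISPR from a lentiviral vector carrying a guide against CARM1, which encodes an arginine methyltransferase that modifies histones and chromatin remodelling proteins. Both libraries came from untreated cells of the same line grown in the same medium. The comparison asks which genes change in expression when CARM1 is lost. With 1 library per group there was no replicate check, so no test with a measured error was made, and every interval given covers counting error only. The KO cells were a single CRISPR clone, so the effect of CARM1 loss and any other difference between that clone and the parental cells cannot be told apart.

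EMT is the process in which epithelial cells loosen their junctions and take on a motile, mesenchymal state. SNAI and ZEB proteins are zinc-finger repressors that bind E-box sequences and switch off epithelial genes such as CDH1, which encodes E-cadherin. TWIST proteins are basic helix-loop-helix factors that act as dimers with E proteins, while OVOL2 keeps cells epithelial by repressing ZEB1. Expression of CDH2, which encodes N-cadherin, in place of CDH1 is known as the cadherin switch, and vimentin, the product of VIM, is the main intermediate filament of mesenchymal cells. In epithelial cells the miR-200 family of microRNAs represses ZEB1 and ZEB2, and both ZEB proteins in turn repress the miR-200 genes.

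The miR-200 sequences are shown because their target sites set ZEB1 and ZEB2 apart from the other genes described here. The mature sequences are from RefSeq (GRCh38.p14), with the seed, bases 2 to 8, in capitals, and the first 3 share a seed that differs from that of the last 2.
hsa-miR-200b-3p: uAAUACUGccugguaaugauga
hsa-miR-200c-3p: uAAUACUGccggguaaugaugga
hsa-miR-429: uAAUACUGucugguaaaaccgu
hsa-miR-141-3p: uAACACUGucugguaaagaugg
hsa-miR-200a-3p: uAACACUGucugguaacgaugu
The genes of miR-200b, miR-200a and miR-429 lie together on chromosome 1, and those of miR-200c and miR-141 on chromosome 12. The 3′ untranslated region of the canonical ZEB1 transcript, 2540 bases long, held 6 matches to the AAUACUG seed and 3 to the AACACUG seed. That of ZEB2, 5370 bases long, held 5 and 4. A match is the reverse complement of the full 7-base seed, and it is a description of the sequence, not a measured site. SNAI2 held 1 match to the AAUACUG seed, and the other 7 genes held 0. Of 19407 canonical 3′ untranslated regions, with a median length of 1067 bases, 28.2% held at least 1 match to either seed, whereas 8 (0.0412%) held at least 9, ZEB1 and ZEB2 among them. The microRNAs themselves were not measured in these libraries. MIR200CHG, the host transcript of miR-200c and miR-141, had a single read (1), in the parental library, and 0 in the KO library.

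Promoter windows are shown for the ZEB genes because their levels moved in opposite directions in CARM1 KO cells. The windows are the 250 bases before a RefSeq start site (GRCh38.p14), with E-boxes, CANNTG, in capitals. The motif CAGGTG, read on both strands and so also as CACCTG, is the E-box form bound by SNAI and ZEB proteins and is counted within CANNTG.
ZEB1, chr10:31318167-31318416, plus strand: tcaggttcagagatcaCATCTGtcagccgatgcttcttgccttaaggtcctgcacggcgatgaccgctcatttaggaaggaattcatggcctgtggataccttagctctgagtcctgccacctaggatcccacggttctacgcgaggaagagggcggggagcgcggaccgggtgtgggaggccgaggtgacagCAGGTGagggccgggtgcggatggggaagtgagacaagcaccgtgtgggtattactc
ZEB1, chr10:31318966-31319215, plus strand: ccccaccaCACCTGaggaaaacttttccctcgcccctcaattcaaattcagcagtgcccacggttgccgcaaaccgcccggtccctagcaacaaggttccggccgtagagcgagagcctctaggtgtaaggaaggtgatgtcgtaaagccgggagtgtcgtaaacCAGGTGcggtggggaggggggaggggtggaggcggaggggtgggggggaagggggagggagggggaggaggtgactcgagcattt
ZEB2, chr2:144520120-144520369, minus strand: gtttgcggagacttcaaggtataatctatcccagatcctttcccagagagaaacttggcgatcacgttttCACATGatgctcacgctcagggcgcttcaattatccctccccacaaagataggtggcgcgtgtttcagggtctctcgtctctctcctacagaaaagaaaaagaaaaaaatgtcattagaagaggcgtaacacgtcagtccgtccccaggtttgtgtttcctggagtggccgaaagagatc
ZEB1 had 7 such windows, of which the 2 shown held CAGGTG and 4 held any E-box. The single ZEB2 window held 1 E-box, CACATG, and no CAGGTG. Since ZEB1 had 7 windows and ZEB2 had 1, these counts do not show that the promoters of the 2 genes differ. Windows were examined for 6 of the 10 genes. None was examined for SNAI1, SNAI2, TWIST1 or OVOL2, so nothing is said here of E-boxes in their promoters. Among the 6, besides the ZEB genes, CDH2 had an E-box in 1 of 2 windows while the single windows of VIM, TWIST2 and PRRX1 held none. Among 35116 windows of the same length, 17.5% held CAGGTG and 61.8% held CANNTG, so an E-box of some form is common in such windows.

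The parental library held 30741953 reads and the CARM1 KO library 32300391. A gene was compared where its reads in the 2 libraries summed to at least 10, which left 18563 genes. A gene was called where its read counts, scaled by the trimmed mean of M values (TMM), differed more than 3-fold. CARM1, the targeted gene, went from 975 parental to 380 KO reads, or 31.3 and 11.9 CPM (counts relative to scaled library size), 2.63-fold lower (95% interval 2.33 to 2.97) and thus under the threshold. Remaining transcript does not show how much protein was left, which the authors examined by immunoblot in parental and KO A1847 cells. The middle 50% of all log2 fold changes, KO minus parental, ran from -0.69 to 0.69 and their median was -0.02. Many genes differed this far, with 12.8% of the genes compared called higher and 11.7% called lower in KO cells.

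Of the 10 genes, 9 had enough reads to be compared. ZEB2 and CDH2 were called higher in CARM1 KO cells and SNAI2 and TWIST1 were called lower, while SNAI1, TWIST2, ZEB1, PRRX1 and VIM stayed within 3-fold. The 2 called higher made up 22.2% of the 9 genes beside the background of 12.8%, and the 2 called lower made up 22.2% beside 11.7%, counts too small to set the group apart from other genes. The median log2 fold change of the 9 genes was 0.58, with 6 values above 0 and 3 below. At a threshold of 2-fold, which 19.6% of all genes passed as higher and 19.1% as lower, PRRX1 and VIM joined the genes called higher and ZEB1 those called lower, which left SNAI1 and TWIST2. The 4 genes called at 3-fold were also those whose counting interval lay wholly past 3-fold, a rule that 6.96% of all genes met as higher and 6.65% as lower. With a fold above 3 and an edgeR exact test at an assumed biological coefficient of variation of 0.4, which called 2.93% of all genes higher and 4.78% lower, none of the 10 genes was called. In bulk RNA, fewer cells that express a gene and less RNA of it per cell cannot be told apart, and this holds for every difference given here.

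**Figure D1:**
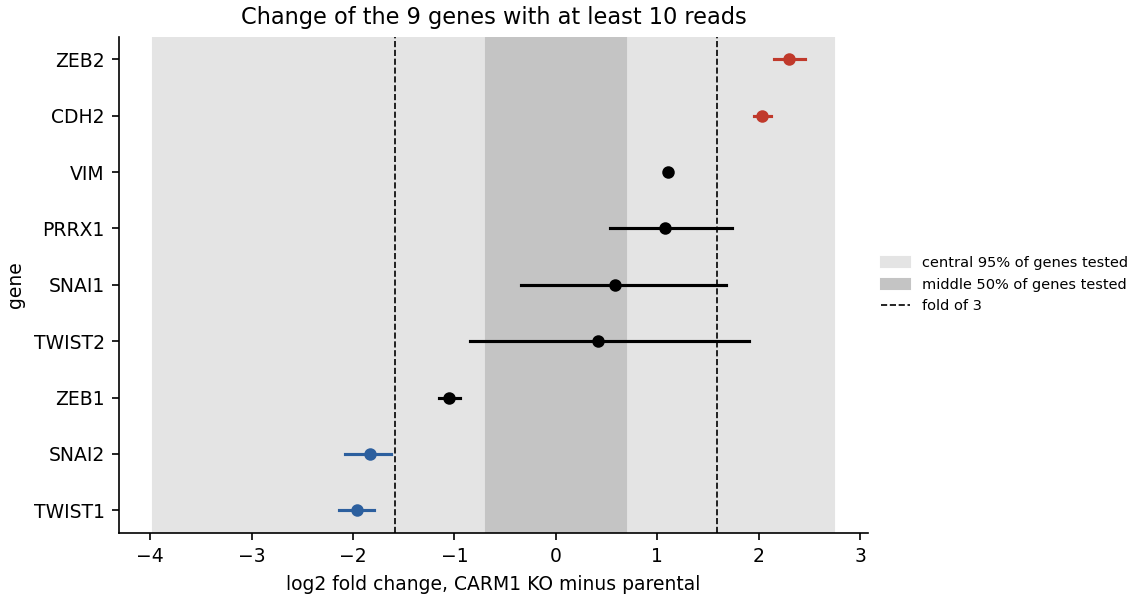
Log2 fold change (CARM1 KO minus parental, x axis) of the 9 genes that could be compared (y axis). Points are fold changes with a prior count of 2, horizontal bars are exact 95% counting intervals without a prior, dashed lines mark 3-fold, and the grey bands hold the middle 50% and central 95% of the 18563 genes compared. ZEB2 (2.30) and CDH2 (2.03) lie past the upper line and SNAI2 (-1.84) and TWIST1 (-1.96) past the lower line, all within the central 95% of genes.

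SNAI2, also known as SLUG, represses CDH1 and serves neural crest and wound-edge cells. The gene lies on chromosome 8 from 49830157 to 49834299 (GRCh37, minus strand). Its count was 727 in the parental and 207 in the KO library, or 23.3 and 6.49 CPM. This was 3.60-fold lower in KO cells (95% interval 3.08 to 4.22). SNAI1, the founding member of the family, lies on chromosome 20 from 48599517 to 48605423 (plus strand) and had 15 parental and 24 KO reads. SNAI1 was thus near the detection limit in both libraries, and its 1.56-fold higher level came with an interval that spans 1 (0.787 to 3.20). SNAI2 supplied 98.0% of the reads of the pair in parental and 89.6% in KO cells, and the reads of both together were 3.29-fold lower in KO cells (2.83 to 3.83). SNAI3, the third member, had 7 and 8 reads.

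TWIST1, a basic helix-loop-helix factor of mesoderm and neural crest that represses CDH1 and activates mesenchymal genes, gave the largest decrease of the 9 genes compared. The gene lies on chromosome 7 from 19060614 to 19157259 (minus strand). Its count was 1363 in the parental and 357 in the KO library, or 43.8 and 11.2 CPM. The level was 3.91-fold lower in KO cells (3.48 to 4.40). TWIST2, its close relative, lies on chromosome 2 from 239756673 to 239832230 (plus strand) and had 9 parental and 13 KO reads. No difference in TWIST2 was detectable at this depth, since the interval of its 1.41-fold higher level ran from 0.558 to 3.74. None of the 75-base words of TWIST1 transcripts, the length of a read, occurred in TWIST2.

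Genes whose products pair with TWIST proteins or compete for the same partners differed as well. This list held the E proteins TCF3, TCF4 and TCF12, with which TWIST dimerises, the ID proteins, which bind E proteins and keep them from DNA, and the related factors HAND1 and HAND2. Of the 8 partners compared, 4 were called lower and 0 higher, with a median log2 fold change of -1.96 beside 11.7% called lower and a median of -0.02 over all genes. ID4 fell from 5184 reads to 55, which was 96.5-fold lower (74.0 to 128). ID2 fell from 2021 to 33 reads, 62.7-fold lower (44.5 to 91.3). TCF4 fell from 7363 to 168 reads, 44.9-fold lower (38.5 to 52.6). These 3 genes were the steepest decreases of the list. ID3 had 1999 and 225 reads and was 9.10-fold lower (7.92 to 10.5). The remaining partners moved less, with ID1 1.68-fold lower (2657 and 1618 reads), HAND2 1.61-fold lower (338 and 215 reads) and TCF3 1.31-fold lower (1845 and 1440 reads). TCF12 had 3673 and 3865 reads, a KO to parental ratio of 1.03 with an interval on both sides of 1 (0.982 to 1.08), and HAND1 had 0 reads in both libraries. Summed over the 4 ID genes, 11861 reads in parental and 1931 in KO cells gave a 6.29-fold lower level (5.99 to 6.60), and the share of ID1 among them went from 22.4% to 83.8%.

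**Figure D2:**
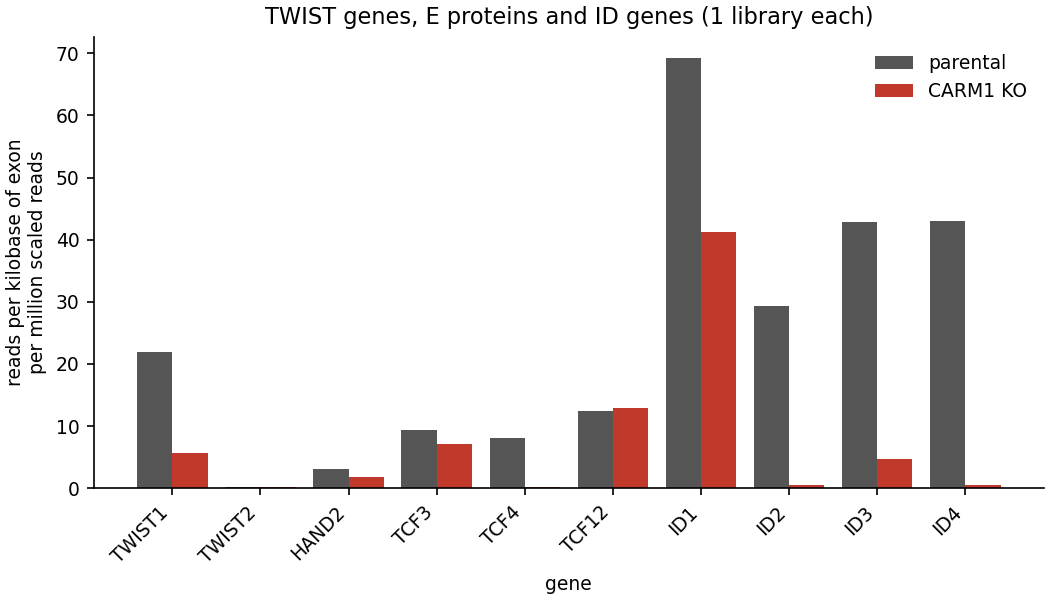
Level of the TWIST genes, HAND2, the E proteins (TCF3, TCF4, TCF12) and the ID genes (x axis) as RPKM (y axis, reads per exon length and scaled library size, linear, from 0), with a grey bar for the parental and a red bar for the CARM1 KO library. TWIST1 went from 21.9 to 5.61 and ID4 from 43.0 to 0.445 while TCF12 stood at 12.5 and 12.8; TWIST2 (0.171 and 0.241) is too low for its bars to be seen.

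ZEB1 and ZEB2 moved in opposite directions. Both are homeodomain factors with a cluster of zinc fingers near each end, and both repress CDH1 and the miR-200 genes. ZEB1 lies on chromosome 10 from 31607424 to 31818742 (plus strand) and was counted 2429 times in the parental and 1201 times in the KO library. At 78.0 and 37.7 CPM it was 2.07-fold lower in KO cells (1.93 to 2.22), within the threshold. ZEB2 lies on chromosome 2 from 145121931 to 145278624 (minus strand) and had 430 and 2172 reads. At 13.8 and 68.1 CPM it was 4.93-fold higher (4.45 to 5.48), the largest increase of the 9 genes compared. The ratio of ZEB2 to ZEB1 reads, which does not depend on how the libraries are scaled, was 0.177 in parental and 1.81 in KO cells, a 10.2-fold change (9.01 to 11.6). ZEB2 supplied 15.0% (13.7% to 16.4%) of the reads of the pair in parental and 64.4% (62.8% to 66.0%) in KO cells. The sum of both hardly moved, from 91.8 to 105.8 CPM, 1.15-fold higher (1.10 to 1.21). The ratio, shares and sum use reads without regard to length, and ZEB2 has longer exons (26151 bases) than ZEB1 (8650). Per length of all exons, ZEB2 stayed below ZEB1 in KO cells (2.60 and 4.35 RPKM). With longest transcripts as length, ZEB2 was above ZEB1 there (7.11 and 6.03). Which of the pair was higher in KO cells thus depends on the length used. This pair was chosen for a ratio after its values were seen.

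Few reads came from transcripts that overlap the ZEB genes. The antisense transcript ZEB1-AS1 had 125 and 71 reads and was 1.80-fold lower (1.34 to 2.45). The transcript AC009951.1 within ZEB2 had 2 and 12 reads, 5.86-fold higher with a wide interval (1.30 to 53.9), while ZEB2-AS1 had 0 and 1 and AC009951.2, also within ZEB2, had 2 and 1. Whether the counting used the strand of the reads is not given in the sources used here, so reads of a gene and its antisense partner cannot be told apart, but the reads of ZEB1-AS1 were only 5.15% of those of ZEB1 in parental and 5.91% in KO cells. Of the 75-base words of ZEB2 transcripts, 13.8% also occurred in AC009951.1 or ZEB2-AS1, and of those of ZEB1 2.54% occurred in another gene.

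PRRX1, a paired-related homeobox factor of mesenchyme, lies on chromosome 1 from 170631869 to 170708562 (plus strand). Its count was 35 in the parental and 78 in the KO library, 2.18-fold higher (1.44 to 3.34). PRRX2, its relative, had 0 and 12 reads, 3.91-fold higher when the parental library is set at a floor of 3 reads. Its counting interval began at 2.71-fold and had no upper end. OVOL2, on chromosome 20 from 17937623 to 18039832 (minus strand), had 1 read in parental and 0 in KO cells, so no fold is given, and OVOL1 and OVOL3 had 0 reads in both. Both PRRX genes were thus at low level and the OVOL family was at or near 0 in both libraries. Reads in the OVOL2 region came from overlapping genes, SNX5 with 5667 and 5472 reads and MGME1 with 1347 and 1348.

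CDH2 was the other gene called higher in CARM1 KO cells. N-cadherin, its product, joins neural and mesenchymal cells to each other. The gene lies on chromosome 18 from 25512843 to 25757910 (minus strand) and went from 1451 parental to 6087 KO reads. At 46.6 and 190.9 CPM it was 4.10-fold higher (3.87 to 4.34). CDH1 was also called higher, from 3 to 53 reads, 17.3-fold (5.59 to 86.3), yet remained far below CDH2. The reads of CDH2 per read of CDH1 went from 484 to 115, so CDH2 was the more abundant cadherin in both libraries and both genes were higher in KO cells. The 3 parental CDH1 reads leave a wide counting error.

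VIM lies on chromosome 10 from 17270240 to 17279592 (plus strand) and went from 20572 parental to 45245 KO reads. At 661 and 1419 CPM, the highest level of the 10 genes in both libraries, it was 2.15-fold higher (2.11 to 2.18). Although the counting interval of VIM is the narrowest of the group, the difference stayed under the threshold of 3-fold and 82.8% of all genes compared had a lower log2 fold change. The 2 overlapping transcripts VIM-AS1 (31 and 44 reads) and ENSG00000234961 (39 and 54 reads) were small beside it. They shared 18.5% of the 75-base words of VIM transcripts, so the division of reads between them and VIM is uncertain. Relative to VIM, CDH2 reads went from 0.0705 to 0.135 per VIM read, 1.91-fold higher (1.80 to 2.03).

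Per length, the order of the 10 genes differed between the libraries. Levels are RPKM, reads per exon length and scaled library size, with the union of all annotated exons as length. In parental cells VIM (127.6) was followed by TWIST1 (21.9), ZEB1 (9.02), SNAI2 (7.12), CDH2 (5.43) and ZEB2 (0.528), with SNAI1 (0.282), TWIST2 (0.171), PRRX1 (0.136) and OVOL2 (0.0146) below. In CARM1 KO cells VIM (274.2) was followed by CDH2 (22.2), TWIST1 (5.61), ZEB1 (4.35), ZEB2 (2.60) and SNAI2 (1.98), with SNAI1 (0.441), PRRX1 (0.297), TWIST2 (0.241) and OVOL2 (0) below. By this length TWIST1 was the factor of highest level in both, and CDH2 moved from the fifth place to the second. The counting intervals of SNAI1 and TWIST2 and of TWIST2 and PRRX1 overlapped in parental cells, as did those of SNAI1 and PRRX1 and of PRRX1 and TWIST2 in KO cells. The place of ZEB2 depends on its length, since its union of exons is 26151 bases and its longest transcript 9583, and with the latter ZEB2 came before TWIST1 and ZEB1 in KO cells. With longest transcripts CDH2 also held place 4 in parental cells, before SNAI2.

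**Figure D3:**
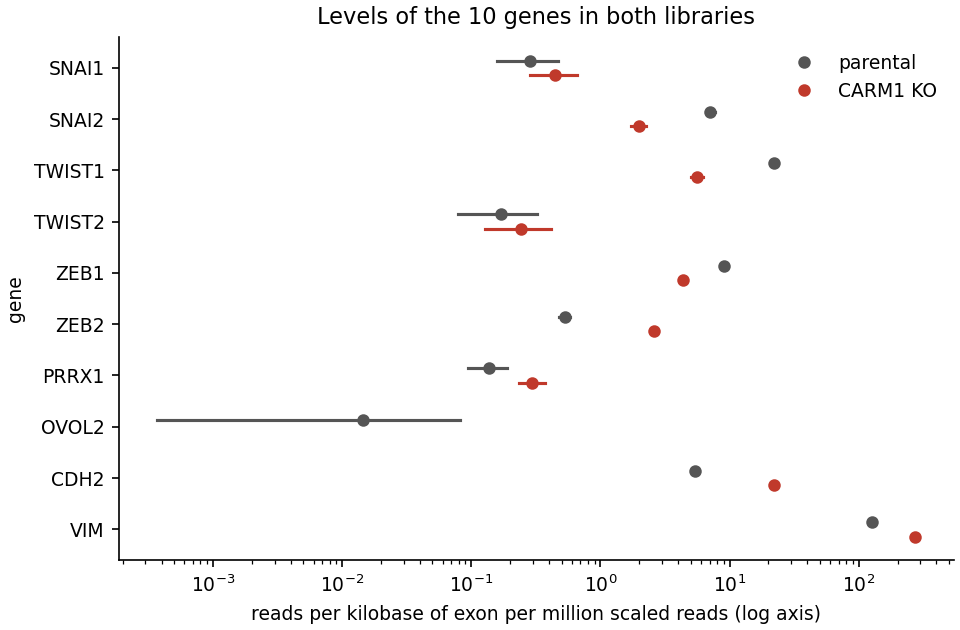
Level of each of the 10 genes (y axis) as RPKM (x axis, log scale) in the parental library (grey) and the CARM1 KO library (red); bars are exact 95% counting intervals. The points of SNAI2, TWIST1 and ZEB1 lie to the left in KO cells and those of ZEB2, CDH2 and VIM to the right, whereas the intervals of SNAI1 and TWIST2 overlap between libraries; OVOL2 had 0 reads in KO cells and has no red point.

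The other EMT inducers, such as HMGA2, SOX9 and the E proteins, were mixed. Of 11 compared, 2 were called higher and 3 lower, with a median log2 fold change of -0.25, beside 12.8% called higher and 11.7% called lower over all genes, the shares against which every list count here is to be read. HMGA2, an architectural chromatin protein that induces SNAI1 and TWIST1, fell from 18603 to 1718 reads, 11.1-fold lower (10.6 to 11.7). TCF4, also among the TWIST partners, was called lower as given above. SOX9 was called higher with 30 and 105 reads, 3.42-fold (2.26 to 5.32), and PRRX2 as given above. Among 20 corepressors and regulators of protein stability, which SNAI, TWIST and ZEB proteins recruit or which mark SNAI proteins for degradation, 0 were called in either direction and the median was 0.12. Their folds ran from 2.08-fold lower for FBXW7, a ubiquitin ligase subunit, to 2.23-fold higher for AJUBA, a LIM protein that recruits corepressors to SNAI1. EZH2, the histone H3 lysine 27 methyltransferase, had 3141 and 5380 reads, 1.67-fold higher (1.60 to 1.75).

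Factors and targets of the epithelial state were also counted. Of 15 epithelial state factors, 6 had enough reads to be compared, of which 5 were called higher and 1 lower in CARM1 KO cells, with a median of 2.01, beside 12.8% and 11.7% of all genes. At an assumed coefficient of variation of 0.4, 0 of the factors were called higher and 1 lower. The splicing regulators ESRP1 (21 and 123 reads) and ESRP2 (27 and 162 reads) were 5.72-fold (3.58 to 9.57) and 5.86-fold higher (3.88 to 9.17), and KLF5, an epithelial zinc-finger factor, was 4.16-fold higher (3.79 to 4.58). ELF3, an epithelial ETS factor, went the other way with 98 and 2 reads, 50.2-fold lower (13.5 to 420). GRHL2 had 0 and 3 reads, and MIR205HG had 0 in both, so several epithelial factors were at or near 0 in either library. Of 15 compared targets that SNAI and ZEB proteins are known to repress, 9 were called higher and 1 lower, with a median of 1.73, or 1.70 with genes at 0 reads set at the floor, and 5 stayed within 3-fold. At a coefficient of variation of 0.4, 1 was called higher and 1 lower. CLDN1, a tight junction protein, had 121 and 634 reads, 5.12-fold higher (4.21 to 6.27), and EPCAM, an epithelial adhesion molecule, had 249 and 848 reads, 3.33-fold higher (2.88 to 3.85). CLDN3, another tight junction protein, had 0 and 10 reads, 3.26-fold higher with the floor (interval from 2.19, no upper end). KRT19, an epithelial keratin, had 45 and 0 reads, 15.4-fold lower with the floor (interval from 12.0, no upper end). The tight junction gene OCLN, 2.11-fold lower (2254 and 1093 reads), was not called.

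**Figure D4:**
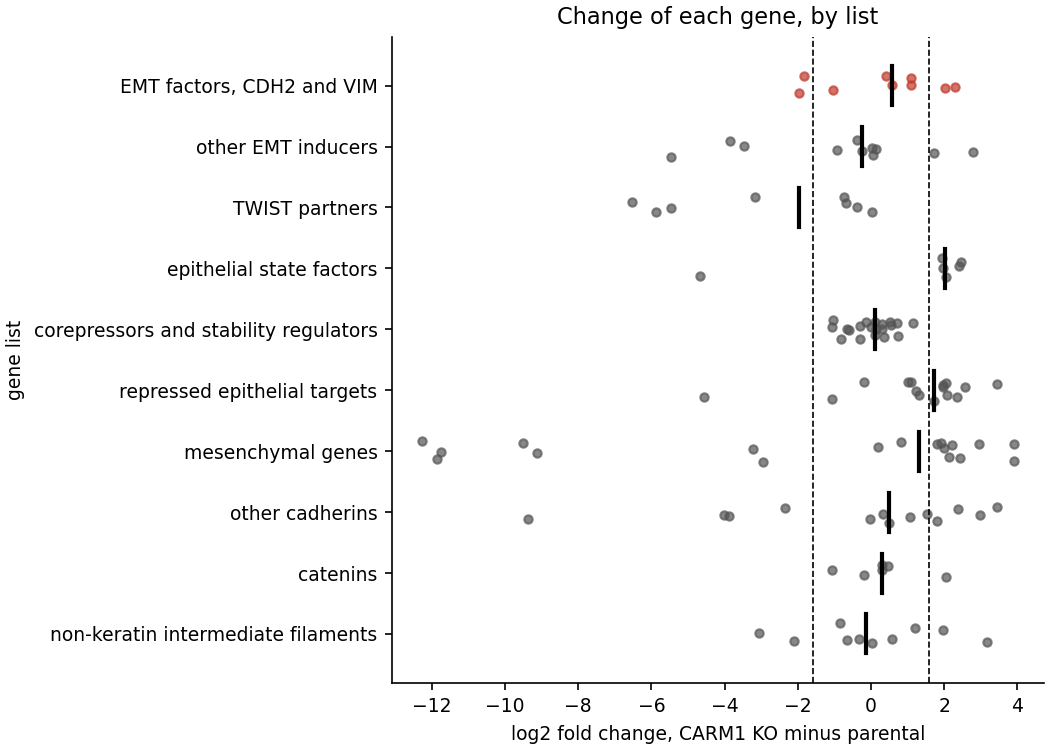
Log2 fold change (CARM1 KO minus parental, x axis) of each listed gene with a summed count of 10 or more, by gene list (y axis); red points are the 9 genes described here, grey points the listed genes, black bars the medians and dashed lines 3-fold. Among the lists drawn, which leave out the cell type markers, the median was highest for the epithelial state factors (2.01) and lowest for the TWIST partners (-1.96), and the mesenchymal genes spread from -12.27 to 3.91.

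The mesenchymal genes split. Of 18 compared, 9 were called higher and 7 lower, beside 12.8% and 11.7% of all genes, and the median was 1.32 (1.37 with the floor). FN1, encoding fibronectin, rose from 14018 to 214759 reads, 15.0-fold (14.7 to 15.2), LOX, which crosslinks collagen, from 52 to 829 reads, 15.6-fold (11.8 to 21.0), and THBS1, encoding thrombospondin, from 4510 to 35487 reads, 7.69-fold (7.45 to 7.93). COL3A1 fell from 14587 reads to 1 and COL1A2 from 16732 to 3, both fibrillar collagens, and POSTN, encoding periostin, from 32601 to 7. The collagen gene COL1A1 went the other way, with 131 and 537 reads, and was called higher. Of 13 other cadherins compared, 4 were called higher and 4 lower, with a median of 0.50 (0.62 with the floor). CDH3, or P-cadherin, had 20 and 176 reads, 8.59-fold higher (5.40 to 14.4), CDH13 had 49 and 267, 5.32-fold higher (3.91 to 7.37), and CDH11 had 5 and 23, 4.49-fold higher (1.67 to 15.1). CDH10 fell from 3229 reads to 3, 1102-fold (377 to 5347), while CDH6 had 46 and 1 reads, 47.1-fold lower (8.04 to 1900). CDH12 had 27 and 0 reads, 9.21-fold lower with the floor (interval from 6.99, no upper end). By read number, CDH10 exceeded CDH2 in parental cells, and per length it stood at 28.3 RPKM beside 5.43 for CDH2, whereas in KO cells CDH2 stood at 22.2 and CDH10 at 0.0257. Among 6 catenins compared, some of which link cadherins to actin, only CTNND2 was called, with 19 and 87 reads, 4.47-fold higher (2.70 to 7.78), and the median was 0.31. Of 10 non-keratin intermediate filament genes compared, 2 were called higher and 2 lower (median -0.14), beside the 12.8% and 11.7% of all genes. NES, encoding nestin, fell from 22322 to 2728 reads, 8.38-fold lower (8.05 to 8.72), and the lamin gene LMNB1 from 31469 to 7528, 4.28-fold lower (4.17 to 4.39). DES, encoding desmin, had 7 and 80 reads, 11.2-fold higher (5.17 to 28.7), and PRPH, encoding peripherin, 1 and 10 reads, 9.77-fold higher (1.39 to 424). VIM was thus 2.15-fold higher beside filament genes that went both ways.

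Markers of cell types moved between the libraries as well. Of 6 fibroblast markers compared, 4 were called lower and 1 higher in CARM1 KO cells, and the summed level of the list was 493 CPM in parental and 21.6 in KO cells. PDGFRA, with 14326 and 2 reads, made up most of the sum in parental cells (460 CPM), and COL1A1 most of it in KO cells (16.8 CPM). DCN had 24 and 0 reads, LUM 61 and 1, and FAP 2 and 3. COL1A1, with 131 and 537 reads, was the marker called higher, and PDGFRB hardly differed, with 132 and 142 reads. Of 7 ovarian carcinoma markers compared, 6 were called higher and 0 lower, with a sum of 1413 and 4758 CPM. Most of this sum came from keratins, KRT8 (565 and 2207 CPM), KRT18 (679 and 1606) and KRT7 (142 and 836). KRT8, KRT18 and EPCAM were also counted above among the targets that SNAI and ZEB proteins repress, so the 2 lists are not independent. PAX8, the lineage factor of these tumours, had 311 and 1149 reads, whereas MUC16 had 0 and 1 and WT1 had 8 and 1. All 3 mesothelial markers compared, MSLN of the carcinoma list among them, were called higher (7.16 and 40.3 CPM). The endothelial markers summed to 0.353 and 0.376 CPM, with 0 of 1 compared called. Of the immune markers, 2 of 2 compared were called higher (13.1 and 52.0 CPM), nearly all of it CD68, with CD3E at 0 in both and PTPRC at 6 and 0 reads. The fibroblast, ovarian carcinoma, mesothelial and immune lists thus differed between the same libraries as SNAI2, TWIST1, ZEB2 and CDH2, and their part in those differences was not tested.

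Each gene was also set beside its neighbours, the 5 nearest protein-coding genes with at least 50 reads on each side. TWIST1, PRRX1 and VIM lay outside the range of their neighbours. TWIST1, at a log2 fold change of -1.96, lay among genes with a median of 0.85 and a range from -1.47 to 3.98, and the only neighbour below 0 was the adjoining gene HDAC9 with 1846 and 683 reads. PRRX1, at 1.08, lay among genes with a median of -0.77 (-1.45 to 0.50). VIM, at 1.10, lay among genes with a median of -0.11 (-10.61 to 0.56), the lowest of which, MRC1L1, went from 4602 reads to 1 but has a near-identical copy, MRC1 (82 and 9 reads), that can share its reads. CDH2, at 2.03, was within the range of its neighbours. Of these 10 genes, 4 were called higher and 0 lower, beside 12.8% and 11.7% of all genes. They spanned 22006598 to 29533099 on chromosome 18, so not all of them lie close to CDH2. Among the 4 were the desmosomal cadherin genes DSC2 (274 and 1187 reads), DSC3 (284 and 1919 reads) and DSG2 (1002 and 5254 reads). ZEB2, at 2.30 among neighbours with a median of 0.12, was also within their range, as were SNAI1, SNAI2, TWIST2 and ZEB1. With 10 neighbours on each side, VIM alone lay outside.

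**Figure D5:**
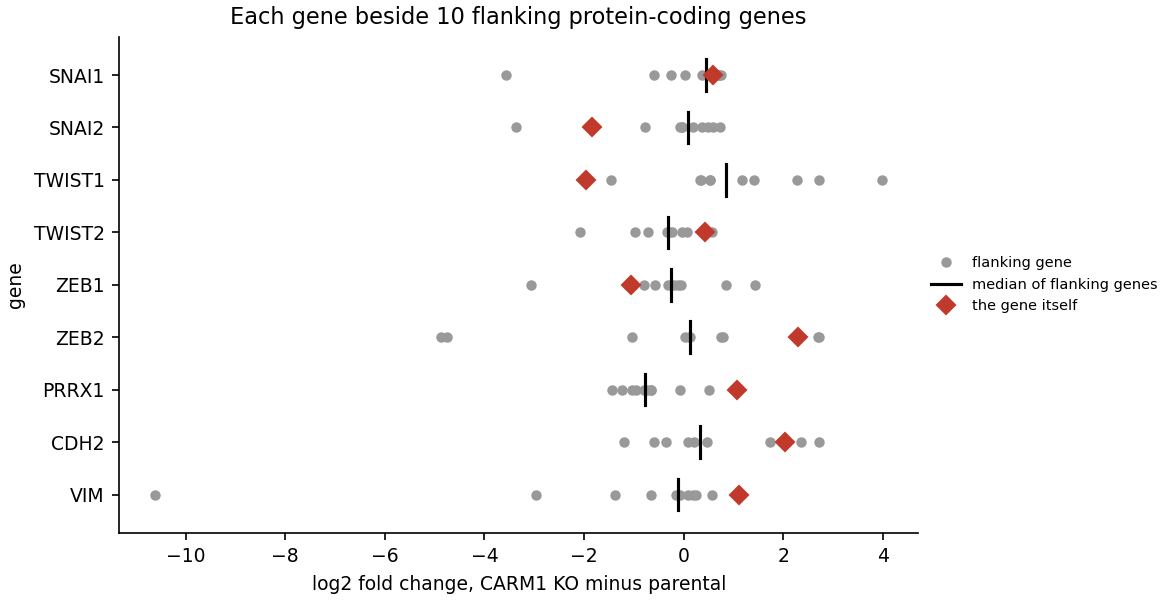
Log2 fold change (CARM1 KO minus parental, x axis) of 9 genes (red diamonds, y axis) and of the 10 protein-coding genes nearest to each (grey points), with the median of the neighbours as a black bar. TWIST1 lies below all of its neighbours and PRRX1 and VIM above all of theirs, whereas CDH2 lies among 4 neighbours that were called higher.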

How the data were processed

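Total RNA of 1 parental control and 1 CARM1 KO library was sequenced as 75-base pairs. The authors aligned reads to hg19 with bowtie2, estimated gene counts with RSEM (version 1.2.3 in the submitters' processing notes) and deposited these counts, as whole numbers and not normalized. Reads that fit several genes are shared out by RSEM. The Ensembl release and strand setting are not given in the sources used here. Identifiers were named with GENCODE release 44 lifted to GRCh37, which held 55501 of 57736.

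Libraries were scaled by TMM in edgeR 4.0.16 (R 4.3.3), with a KO to parental factor of 1.02. A gene was compared from a summed count of 10. Calls needed more than 3-fold, the fold in the methods, with 0 reads set to a floor of 3 per library. Log2 fold changes used a prior count of 2. Intervals are exact 95% Clopper-Pearson intervals (scipy 1.17.1). With 1 library per group, no quasi-likelihood test could be fitted. The calling was run on counts simulated without variation between cultures, so the simulation cannot show how the 3-fold rule fares with such variation. Alternatives were other scalings (library size, DESeq2 1.42.0, upper quartile, protein-coding TMM), read minimums, a prior of 0.5, 2-fold, the counting interval, and an assumed coefficient of variation (0.12 or 0.4). The named genes were the 10 genes, CARM1, genes overlapping them, from each list up to 3 called genes with the largest change each way, and a set named whatever its values (such as CDH1, EPCAM, FN1, EZH2 and the TWIST partners). Neighbours, marker genes, the ends of list ranges and the ratios and sums of genes were chosen after their values were seen. The 10 genes and all lists were chosen with earlier results of these data known. NEFL and PECAM1 had no match. A gene that the naming rule selects is not reported here.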

Additional observations from a re-analysis of the deposited data

How the results depend on the processing

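SNAI2 and TWIST1 stayed lower and ZEB2 and CDH2 higher past 3-fold by the counting interval and at an assumed coefficient of variation of 0.12. The same held under all 4 other scalings and both other read minimums, but these settings could hardly change the 4 calls. The scalings differed little, with KO to parental factors from 1 to 1.06, and a read minimum does not alter the fold of a gene. At 2-fold, 4 of the 10 genes were called higher. At an assumed coefficient of variation of 0.4, 0 of the 10 genes were called higher and 0 lower. List genes called higher were 30 at 3-fold, 6 at 0.4 and 19 by the counting interval. List genes called lower were 21, 19 and 20 under the same rules. With longest transcripts as length, 9 places in the orders of level changed, and with 10 neighbours a side 1 gene lay outside their range. Over all genes, calls higher and lower were 2372 and 2175 at 3-fold, 3631 and 3537 at 2-fold, 1292 and 1234 by the interval, and 543 and 888 at 0.4; at least 1 or 50 reads gave 3982 or 1219 lower. The log2 fold changes of the 9 compared genes and CARM1 were followed only under the 4 other scalings and the other prior count. None changed sign, but these settings could hardly reverse one, since they shift the values little and the value nearest to no change was 0.42 (TWIST2). Other named genes were not followed singly. SNAI1, TWIST2 and OVOL2 are limited by depth. Leaving out a library was not run, since each group has 1. No paired analysis was possible because each group has 1 library.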
